A study of Homo sapiens with 12 samples.

Results

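The transcripts of 10 genes of glucose uptake and glycolysis were examined in K562 cells with and without lycorine. These were the glucose transporters SLC2A1 and SLC2A3, the hexokinases HK1 and HK2, and the enzymes PFKP, ALDOA, PGK1, ENO1, PKM and LDHA. They were chosen by name, and all 10 were among the 19447 gene symbols of the deposited count table. K562 is a BCR-ABL-positive line from human chronic myeloid leukemia, and lycorine is a plant alkaloid. K562/IM is a line grown from K562 under rising doses of the BCR-ABL inhibitor imatinib (IM) until it was resistant, so that resistance is represented by 1 selected line. The 4 groups each held 3 libraries of poly(A) RNA. They were untreated K562, K562+L (K562 given 6 µM lycorine), K562/IM labelled as control, and the libraries labelled K562/IM+L (K562/IM given 6 µM lycorine). The duration of lycorine exposure before sequencing was not given in the sources used here. The paper describes K562/IM as growing in medium with imatinib, and whether imatinib was present before sequencing was not given. Its effect therefore cannot be told apart from traits of the resistant line. Nothing states that the 3 libraries of a group came from separate cultures, so the p-values may measure technical spread alone.

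Glucose enters the cell through facilitative transporters of the SLC2A family, of which SLC2A1 (GLUT1) is the widespread form and also the abundant carrier of the human red cell, while SLC2A3 (GLUT3) has a higher affinity for glucose. Hexokinase traps glucose as glucose 6-phosphate, phosphofructokinase commits it to glycolysis, and aldolase splits the 6-carbon sugar into 3-carbon sugars. PGK1 and pyruvate kinase are the ATP-forming steps, enolase lies between them, and lactate dehydrogenase turns pyruvate into lactate. Most steps are encoded by several genes whose use differs between tissues, and many of them are known targets of HIF and MYC in cancer cells.

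The total counts of the 12 libraries ran from 75093844 to 107344598. Values are given as CPM, the usual counts relative to a library's total, with that total scaled by the TMM method to make libraries comparable. The members held 234 to 264499 counts in a library. Since 1 fragment may be worth several counts in this table, how much of the spread between libraries is counting error is unknown. The sample labels name the libraries labelled K562/IM+L as group G2, whereas the study's pictures use another group name, and the grouping was left as labelled. CD3D, a T cell gene, stood at 21.3 to 23.0 CPM in K562/IM and at 0.127 to 2.72 CPM in the other 9 libraries, those labelled K562/IM+L included. COL1A2, a collagen gene, likewise stood at 17.2 ± 1.54 CPM (SD, n = 3) in K562/IM while the libraries labelled K562/IM+L held 0.0294 ± 0.0508 CPM (SD, n = 3). Every direction drawn from these libraries rests on the label, and for that reason they were also compared with untreated K562.

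Erythroid genes differed strongly between the groups as well. The 15 erythroid markers, which include globins and GATA1, summed to 7420 to 10152 CPM in K562, 4912 to 5736 in K562+L, 3390 to 3610 in K562/IM and 41813 to 58931 in the K562/IM+L-labelled libraries. In the latter, 15 of 15 passed an adjusted p under 0.05 as higher than in K562/IM (median log2 fold change 4.14), beside 33.2% of all genes. Against K562, 13 of 15 were higher there, beside 28.2% of all genes. In K562/IM 11 of 15 were lower than in K562 (27.1% of all genes) and 1 was higher (30.1%). In K562+L 8 of 15 were lower (19.0%). The B cell gene MS4A1 was at 0 in all 12 libraries. The 5 markers of lymphocytes summed to 23.8 to 25.7 CPM in K562/IM and to at most 3.50 CPM elsewhere. Those of monocytes and neutrophils summed to 75.4 to 171 CPM, nearly all of it LYZ, and those of fibroblasts and epithelia to 284 to 616 CPM, most of it KRT8 and EPCAM. The part of these differences in the results below was not tested. In bulk RNA, fewer cells of a type and less RNA per cell cannot be told apart.

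Per kilobase of annotated exon, which allows genes to be compared with each other, ENO1 was the most abundant member in K562 at 509 ± 71.0 CPM per kb (SD, n = 3). ALDOA followed at 304 ± 58.8, LDHA at 225 ± 8.41, PGK1 at 110 ± 4.52 and HK1 at 77.6 ± 2.32 CPM per kb, with no overlap between neighbours in this order. PKM at 38.8 ± 4.71 and SLC2A3 at 33.5 ± 1.83 CPM per kb overlapped, as did PFKP at 18.0 ± 1.52 and HK2 at 15.2 ± 1.69. SLC2A1 lay between these pairs at 27.3 ± 1.27 CPM per kb. ENO1, LDHA and ALDOA were among the most abundant transcripts in K562, at the 99.93, 99.72 and 99.65 percentiles of all symbols by mean CPM. The order differed in the K562/IM+L-labelled libraries, where ALDOA at 203 ± 32.6 CPM per kb stood above ENO1 at 143 ± 14.5 and SLC2A1 at 131 ± 5.99, the last pair overlapping. SLC2A3 at 1.32 ± 0.139 and HK2 at 0.617 ± 0.0944 CPM per kb were last there, HK2 at the 45.96 percentile of all symbols. These orders and overlaps hold for the exon length used and can differ with another length. For LDHA the annotated exons span 6210 bases and the longest transcript 2416, and for ALDOA 3916 and 2534. By the longest transcript LDHA would stand above ALDOA in K562.

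The promoters of 4 members are shown as examples of windows with 0, 2 and 3 matches of a motif known from HIF-responsive promoters. Each sequence is the 250 bases before the first RefSeq start of the gene on the coding strand (GRCh38.p14). Capitals mark ACGTG, a form of the core letters of the hypoxia response element, read on either strand. CACGT on the printed strand is the same motif on the other strand. Other forms of the core, such as GCGTG, were not searched for and are not in capitals.
SLC2A1, chr1:42958869-42959118, minus strand: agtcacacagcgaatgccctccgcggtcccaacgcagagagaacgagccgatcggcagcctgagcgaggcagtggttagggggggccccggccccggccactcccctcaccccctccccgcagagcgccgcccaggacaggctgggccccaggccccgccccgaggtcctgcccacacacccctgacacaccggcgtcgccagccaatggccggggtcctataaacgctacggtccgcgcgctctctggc
HK2, chr2:74833877-74834126, plus strand: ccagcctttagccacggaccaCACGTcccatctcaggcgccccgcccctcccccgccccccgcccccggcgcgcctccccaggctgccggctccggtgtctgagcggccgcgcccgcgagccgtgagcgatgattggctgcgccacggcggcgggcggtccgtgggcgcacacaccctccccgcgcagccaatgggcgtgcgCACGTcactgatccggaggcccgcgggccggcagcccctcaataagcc
PGK1, chrX:78103998-78104247, plus strand: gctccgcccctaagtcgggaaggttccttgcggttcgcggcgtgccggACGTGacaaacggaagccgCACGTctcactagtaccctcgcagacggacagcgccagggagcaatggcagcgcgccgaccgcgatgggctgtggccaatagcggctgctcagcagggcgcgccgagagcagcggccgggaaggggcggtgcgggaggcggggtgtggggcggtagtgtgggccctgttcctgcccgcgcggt
LDHA, chr11:18394313-18394562, plus strand: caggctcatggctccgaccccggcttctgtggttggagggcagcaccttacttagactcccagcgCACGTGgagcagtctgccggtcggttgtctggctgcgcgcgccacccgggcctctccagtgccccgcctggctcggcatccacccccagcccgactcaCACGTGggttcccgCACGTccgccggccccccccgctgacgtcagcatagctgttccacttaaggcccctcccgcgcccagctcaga

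HK2 and PGK1 each held 2 matches of ACGTG in the window shown and LDHA held 3, whereas SLC2A1 held 0. Of the LDHA matches, 2 lie inside CACGTG, the E-box that MYC and related factors read, and the second RefSeq start of HK2 held 2 such E-boxes. The window of the second RefSeq start of LDHA held no match of ACGTG or CACGTG. RefSeq listed 22 starts for 9 of the members, and 5 of the 9 (HK2, PFKP, ALDOA, PGK1 and LDHA) had ACGTG in at least 1 window, against 21.7% of all genes. CACGTG was in a window of 3 of the 9, against 7.73% of all genes, and GGGCGG, the GC box, in a window of 9 of the 9, against 46.2%. Genes with several starts have more windows in which a match can fall. ENO1, PKM and HK1 had no match of ACGTG, which says only that these letters are not in the window read. GCGTG, present for instance in the ENO1 window, was not counted. ALDOA had 1 match of ACGTG in each of its 3 windows. Members with and without a match were found among those that fell in the comparisons below, ENO1 and PKM among the latter, and ALDOA did not pass the threshold between K562/IM and the K562/IM+L-labelled libraries.

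The first comparison asked how lycorine changed these transcripts in K562. SLC2A1 rose 2.15-fold and HK2 rose 1.51-fold in K562+L, while SLC2A3, PFKP and PGK1 fell by less than 1.5-fold each, and ENO1, PKM and LDHA were within 1.08-fold of K562. Of the 10 members, all of which passed the low-count filter, 2 were thus higher and 3 lower past the threshold of 0.05 on the adjusted p of edgeR's quasi-likelihood test. Among the 12927 genes tested, 18.2% were higher and 19.0% lower. The median log2 fold change of the members was -0.10, beside -0.00 for all genes tested.

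The second comparison set the imatinib-resistant line beside its parent, and here 3 members were higher and 5 lower in K562/IM. SLC2A3, PFKP and PKM rose, and SLC2A1, ALDOA, PGK1, ENO1 and LDHA fell, all by less than 2-fold. Of all 13406 genes tested, 30.1% were higher and 27.1% lower. With library totals alone as the scaling, this split became 40.5% and 18.3%. The median over the members was -0.33 on the log2 scale, beside 0.04 for all genes. These values and those of K562+L share the K562 libraries as their reference.

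The third comparison set the K562/IM+L-labelled libraries beside K562/IM and gave much larger changes. SLC2A1 rose 8.03-fold, while SLC2A3 fell 30.4-fold, HK2 22.6-fold, PKM 9.09-fold, LDHA 3.75-fold and ENO1 2.40-fold. In all 2 members were higher, 7 lower and 1 was not past the threshold, and 6 changed by more than 1 on the log2 scale. Of the 13727 genes tested, 33.2% were higher and 33.6% lower (26.3% and 41.9% with library totals alone), and the share past the threshold that changed by more than 1 on the log2 scale was 28.5%. The members' median was -0.97, beside -0.01 for all genes.

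Against untreated K562, the same libraries had 1 member higher, SLC2A1, and 8 lower. Of the 13307 genes tested there, 28.2% were higher and 27.8% lower (34.3% and 21.7% with upper-quartile scaling). With that scaling PFKP and ALDOA, which were lower by 0.40 and 0.60 on the log2 scale, no longer passed the threshold (adjusted p = 0.0594 and 0.0617). The members' median was -1.62, beside 0.02 for all genes. Finally, the effect of lycorine was compared between the lines as labelled, by an interaction over all 12 libraries. The effect was more positive in K562/IM for SLC2A1 and more negative for 7 members, where among 13995 genes 29.9% were more positive and 31.7% more negative.

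**Figure D1:**
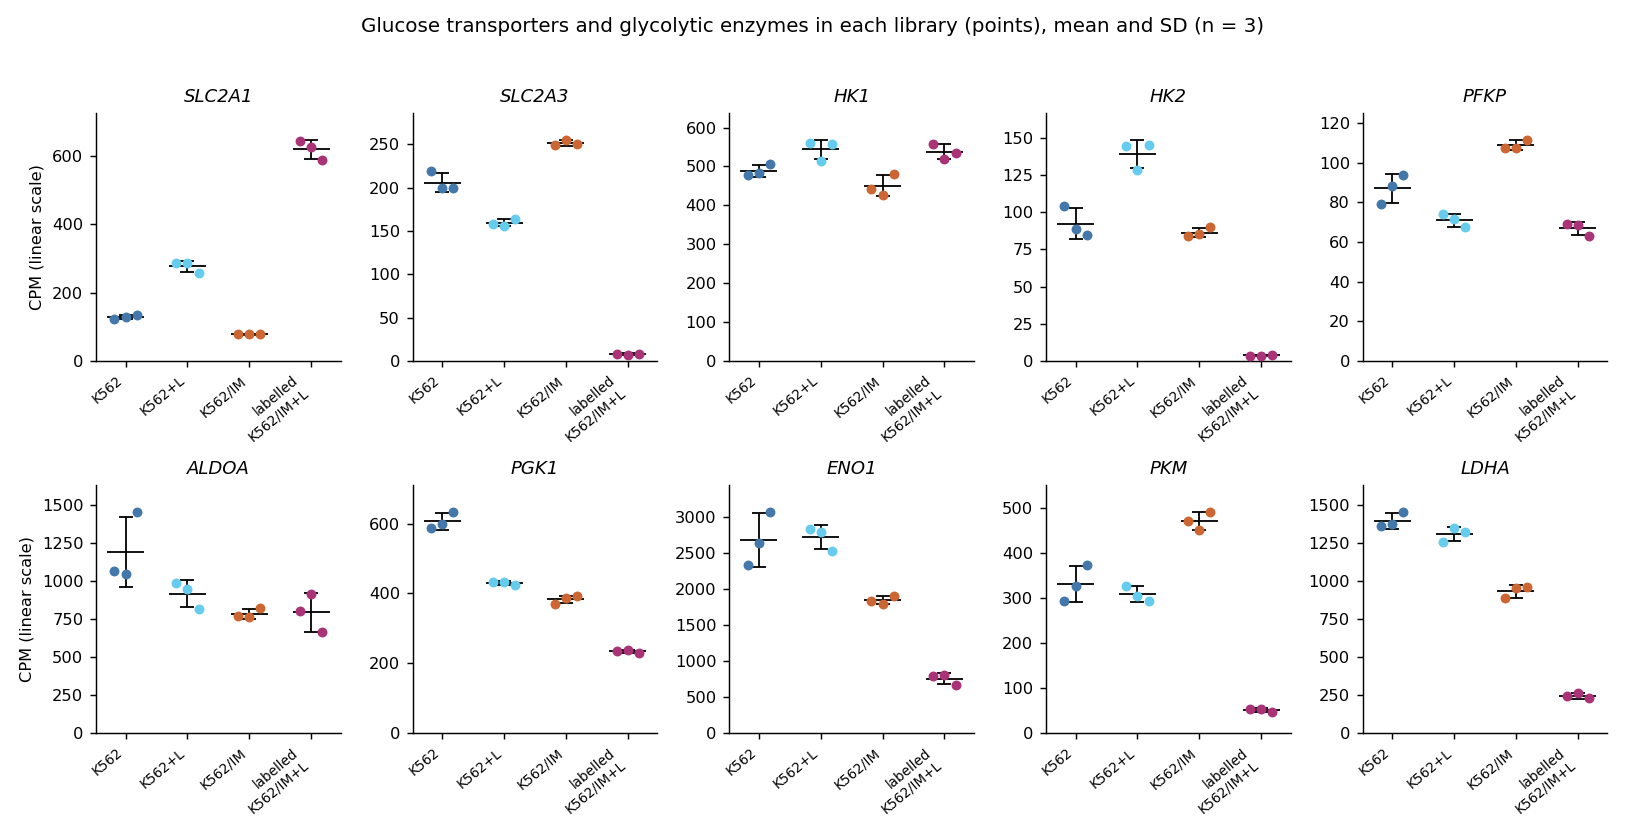
CPM on a linear scale of each of the 10 members in the 12 libraries (points), with the mean and SD of the 3 libraries of a group (horizontal line and bar). SLC2A1 is highest and SLC2A3, HK2, PKM and LDHA are lowest in the K562/IM+L-labelled libraries, while HK1 stays between 427 and 560 CPM throughout.

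SLC2A1 lies on chromosome 1 of GRCh38 from 42925375 to 42959176. The 3 K562 libraries held 123, 130 and 134 CPM of SLC2A1, and the 3 K562+L libraries 287, 287 and 258. In K562/IM the values were 78.0, 79.7 and 77.9, and the K562/IM+L-labelled libraries held 644, 626 and 589. The 4 groups did not overlap, and the labelled libraries were the highest of all. In K562 the log2 fold change with lycorine was 1.10 (standard error, SE, 0.08; adjusted p = 0.000182 by edgeR's quasi-likelihood test). K562/IM was lower than K562 by a log2 fold change of -0.71 (SE 0.07, adjusted p = 9.76e-05 by edgeR). Between K562/IM and the K562/IM+L-labelled libraries the change was 3.01 (SE 0.07, adjusted p = 1.77e-07 by edgeR), and against K562 it was 2.25. Going by the labels, SLC2A1 was thus higher in the lycorine libraries of both lines, and the effects differed by 1.88 (SE 0.09, adjusted p = 2.29e-08 for the interaction in edgeR).

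SLC2A3, the high-affinity transporter, lies on chromosome 12 from 7919230 to 7936275. Its libraries held 219, 199 and 200 CPM in K562, 158, 156 and 164 in K562+L, 249, 256 and 251 in K562/IM, and 8.62, 7.13 and 8.62 in the K562/IM+L-labelled libraries. No groups overlapped, and the labelled libraries stood far below the rest. SLC2A3 fell with lycorine in K562 by 0.37 on the log2 scale (SE 0.08, adjusted p = 0.00941 by edgeR), was higher in K562/IM than in K562 by 0.29 (adjusted p = 0.00792), and fell by 4.93 (SE 0.10, adjusted p = 1.3e-07) in the K562/IM+L-labelled libraries. Against K562 the fall was 4.68, a 25.7-fold difference. SLC2A3 therefore moved opposite to SLC2A1 in each of these comparisons, and its lycorine effects differed by -4.58 (SE 0.12, adjusted p = 1.3e-10 for the interaction in edgeR). Since 13.02% of the 75-base stretches of the SLC2A3 transcript also occur in its near-copy SLC2A14, part of its counts may belong there. SLC2A14 itself was low, at 4.24 ± 1.36 CPM (SD, n = 3) in K562 and 0.553 ± 0.0639 (SD, n = 3) in the K562/IM+L-labelled libraries.

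HK1, the widespread hexokinase and the main form of the red cell, lies on chromosome 10 from 69269984 to 69401884. HK1 stood at 479, 482 and 505 CPM in K562, 560, 515 and 557 in K562+L, 443, 427 and 480 in K562/IM, and 558, 520 and 534 in the K562/IM+L-labelled libraries. These levels differed little between groups. The log2 fold changes of 0.15 in K562+L (adjusted p = 0.131) and of -0.12 in K562/IM (adjusted p = 0.173) did not pass edgeR's test. The rise of 0.28 in the K562/IM+L-labelled libraries did (SE 0.07, adjusted p = 0.00944), without overlap, but with library totals alone as the scaling it was 0.10 (adjusted p = 0.259).

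HK2, the inducible hexokinase of muscle and of many tumors, lies on chromosome 2 from 74833981 to 74893359. HK2 stood at 104, 88.7 and 84.5 CPM in K562 and at 144, 128 and 145 in K562+L. In K562/IM it stood at 84.2, 85.1 and 89.8, and in the K562/IM+L-labelled libraries at 3.59, 3.27 and 4.38. K562 and K562/IM overlapped, K562+L lay above them and the labelled libraries far below. HK2 rose with lycorine in K562 by a log2 fold change of 0.59 (SE 0.11, adjusted p = 0.00492 by edgeR) and fell by 4.50 (SE 0.13, adjusted p = 3.37e-07) in the K562/IM+L-labelled libraries. This sign change between the lines as labelled gave the largest difference of effects among the members, -5.11 (SE 0.16, adjusted p = 8.71e-10 for the interaction in edgeR).

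PFKP, the platelet-type phosphofructokinase, lies on chromosome 10 from 3066333 to 3137712. It held 79.2, 88.3 and 93.7 CPM in K562, 73.8, 71.4 and 67.5 in K562+L, 107, 107 and 112 in K562/IM, and 69.0, 68.4 and 63.0 in the K562/IM+L-labelled libraries. The 2 groups labelled as given lycorine lay below the 2 control groups. The fall in K562+L was small, with a log2 fold change of -0.30 (SE 0.09, adjusted p = 0.0388 by edgeR), and was no longer past the threshold in 5 of the 6 fits that left out 1 library, all but the fit without K562 replicate 1 (adjusted p up to 0.133). PFKP was higher in K562/IM than in K562 by 0.32 (adjusted p = 0.0104) and fell by 0.68 (SE 0.07, adjusted p = 8.11e-05) in the K562/IM+L-labelled libraries.

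ALDOA, which encodes the aldolase of muscle and red cells, lies on chromosome 16 from 30064164 to 30070457. ALDOA held 1069, 1050 and 1458 CPM in K562, 987, 949 and 819 in K562+L, 771, 761 and 825 in K562/IM, and 807, 918 and 663 in the K562/IM+L-labelled libraries. The third K562 library was well above the other two. ALDOA was lower in K562/IM than in K562 by a log2 fold change of -0.60 (SE 0.13, adjusted p = 0.00474 by edgeR). The change of -0.38 in K562+L (adjusted p = 0.0642) did not pass the threshold, though without K562 replicate 1 it did (adjusted p = 0.0298), as it did with DESeq2 (adjusted p = 0.032). Between K562/IM and the K562/IM+L-labelled libraries the groups overlapped, and the change was 0.04 (SE 0.12, adjusted p = 0.758). Against K562 the labelled libraries were lower by 0.60 on the log2 scale (adjusted p = 0.0221), or 0.0541 without the first of them. ALDOA is uncertain as a locus, since 87.9% of its 75-base stretches also occur in the overlapping gene model AC093512.2.

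PGK1, which forms ATP from 1,3-bisphosphoglycerate, lies on chromosome X from 77910739 to 78129296. The libraries held 587, 598 and 635 CPM in K562, 433, 432 and 424 in K562+L, 371, 386 and 392 in K562/IM, and 236, 237 and 230 in those labelled K562/IM+L. No groups overlapped, and PGK1 stood lower in the libraries labelled as treated in each line. The log2 fold change was -0.50 (SE 0.07, adjusted p = 0.00184 by edgeR) in K562+L, -0.66 (SE 0.06, adjusted p = 0.000103) in K562/IM against K562, and -0.68 (SE 0.06, adjusted p = 5.06e-05) in the K562/IM+L-labelled libraries against K562/IM. The difference between the lycorine effects was -0.21 (adjusted p = 0.0351 for the interaction). With upper-quartile scaling it was -0.078 (adjusted p = 0.426), and it also missed the threshold with RLE scaling, the size factors of DESeq2 (adjusted p = 0.0573) and with no low-count filter (adjusted p = 0.0614). It was no longer past the threshold in 9 of the 12 fits without 1 library, those other than without K562 replicate 3, K562+L replicate 3 or the second library labelled K562/IM+L (adjusted p up to 0.111). Going by the labels, PGK1 was thus the enzyme whose change with lycorine was closest in size in the 2 lines among the members that fell in both.

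ENO1, the widespread enolase, lies on chromosome 1 from 8861000 to 8879250. ENO1 held 2333, 2647 and 3079 CPM in K562, 2839, 2795 and 2538 in K562+L, 1838, 1802 and 1904 in K562/IM, and 793, 808 and 668 in the K562/IM+L-labelled libraries. K562 and K562+L overlapped, with a log2 fold change of 0.02 (SE 0.11, adjusted p = 0.904 by edgeR). ENO1 was lower in K562/IM than in K562 by a log2 fold change of -0.54 (SE 0.10, adjusted p = 0.00236) and fell by 1.26 (SE 0.09, adjusted p = 1.4e-05) in the K562/IM+L-labelled libraries.

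PKM, the pyruvate kinase of most proliferating cells, lies on chromosome 15 from 72199029 to 72231822. Its libraries held 294, 328 and 375 CPM in K562, 328, 306 and 293 in K562+L, 471, 452 and 492 in K562/IM, and 53.6, 53.4 and 46.0 in those labelled K562/IM+L. K562/IM was highest and the labelled libraries lowest, without overlap with any other group. PKM rose in K562/IM by a log2 fold change of 0.51 (SE 0.10, adjusted p = 0.00282 by edgeR) and fell by 3.18 (SE 0.09, adjusted p = 3.07e-07) in the K562/IM+L-labelled libraries. In K562+L the value was -0.11 (adjusted p = 0.45), and the lycorine effects differed by -3.10 (SE 0.14, adjusted p = 8.33e-09 for the interaction). The table counts genes, so that the PKM1 and PKM2 splice forms were not separated.

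LDHA, the lactate dehydrogenase subunit that favors lactate formation, lies on chromosome 11 from 18394388 to 18408425. LDHA held 1362, 1373 and 1457 CPM in K562, 1259, 1349 and 1326 in K562+L, 886, 953 and 965 in K562/IM, and 242, 264 and 229 in the K562/IM+L-labelled libraries. K562+L lay just below K562, and its log2 fold change of -0.09 did not pass edgeR's test (adjusted p = 0.305). LDHA was lower in K562/IM than in K562 by a log2 fold change of -0.58 (SE 0.06, adjusted p = 0.000192) and fell by 1.90 (SE 0.08, adjusted p = 1.36e-06) in the K562/IM+L-labelled libraries. Its lycorine effects differed by -1.84 (SE 0.10, adjusted p = 2.84e-08 for the interaction), and those of ENO1 by -1.30 (SE 0.14, adjusted p = 1.18e-05).

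**Figure D2:**
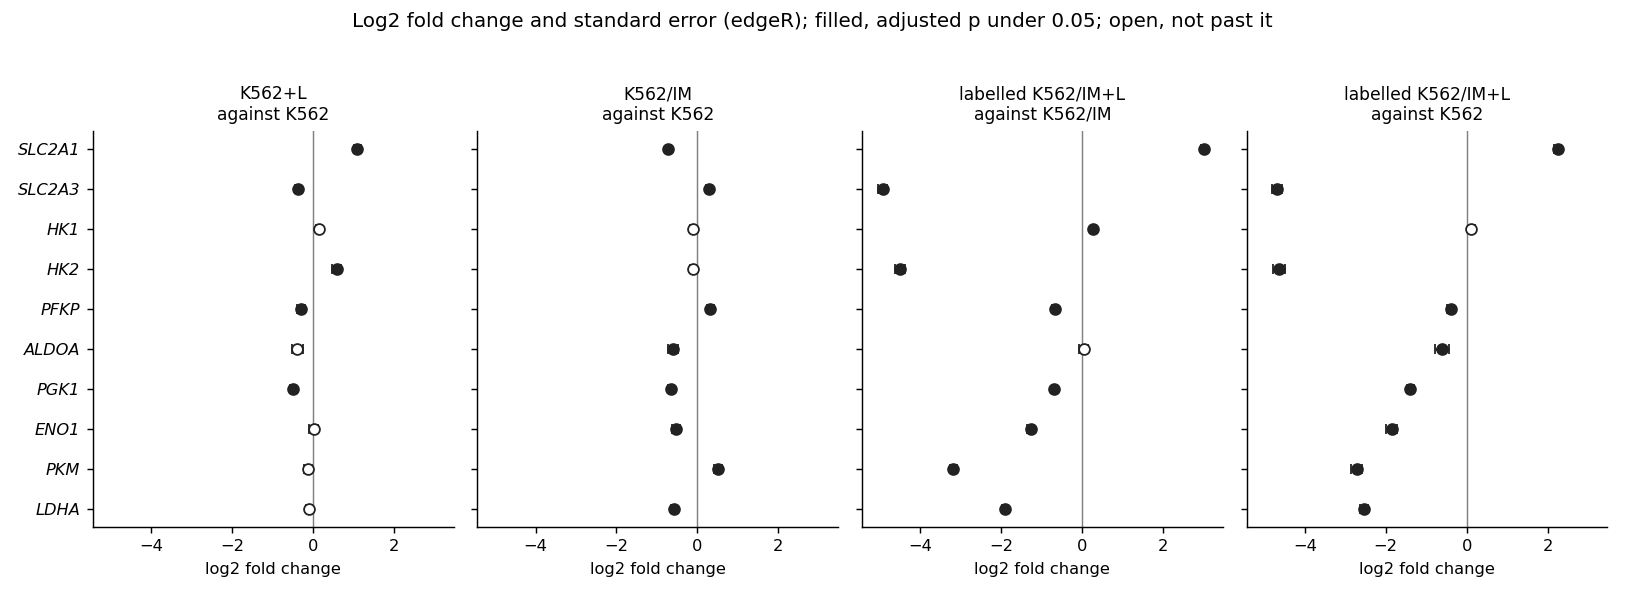
Log2 fold change (point) and standard error (bar) of the 10 members in 4 comparisons on 1 shared axis, from edgeR's quasi-likelihood fits, with filled points where the adjusted p was under 0.05. The points lie between -0.71 and 1.10 in the comparisons without the K562/IM+L-labelled libraries, and reach 3.01 for SLC2A1 and -4.93 for SLC2A3 with them.

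The balance between genes of 1 family was examined next, as a share of their summed CPM per kilobase. SLC2A1 made up 44.9% ± 2.42 (SD, n = 3) of SLC2A1 plus SLC2A3 in K562, 69.3% ± 1.85 in K562+L, 28.9% ± 0.0916 in K562/IM and 99.0% ± 0.123 in the K562/IM+L-labelled libraries. K562/IM thus leaned to SLC2A3, and the labelled libraries held almost none of it. HK2 made up 16.4% ± 1.83 of both hexokinases in K562, 21.0% ± 0.395 in K562+L, 16.6% ± 0.456 in K562/IM and 0.718% ± 0.109 in the K562/IM+L-labelled libraries. PKM made up 61.4% ± 1.03 of PKM plus PKLR in K562, 72.6% ± 0.441 in K562+L, 85.5% ± 0.877 in K562/IM and 4.04% ± 0.197 in the K562/IM+L-labelled libraries. With the longest transcript as the length, PKM made up 81.3%, 87.9%, 94.2% and 10.3% in these groups, so its level depends on the length used while the order of the groups does not.

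LDHA made up 34.6% ± 1.40 (SD, n = 3) of LDHA plus LDHB in K562, 41.6% ± 0.410 in K562+L, 34.4% ± 0.303 in K562/IM and 13.7% ± 0.412 in the K562/IM+L-labelled libraries. With the longest transcript as the length LDHA made up 41.2% in K562, and with no length 52.4%. Which of the pair is the larger in K562 thus depends on the length used. In the labelled libraries these shares were 17.4% and 24.9%. LDHB is the subunit that favors pyruvate formation, and 54.8% of its 75-base stretches also occur in the gene model AC010197.2, so its share is less certain. PFKP made up 28.0% ± 0.601 of the 3 phosphofructokinase genes in the K562/IM+L-labelled libraries and 33.3% to 37.3% in the means of the other groups. The remaining families were dominated by the member in every group, ALDOA with 92.7% to 97.7% and ENO1 with 96.9% to 99.5% of theirs in the group means. In 7 of 7 families the share in the K562/IM+L-labelled libraries did not overlap that in K562/IM. ALDOA moved only from 95.7% to 92.7% and ENO1 from 96.9% to 98.5%. In this comparison 33.2% of all genes were higher and 33.6% lower past the threshold. That counts single genes by adjusted p, a different measure from family shares without overlap. How often other families separate the groups was not examined. Each of the 7 family differences had p = 0.1 in a two-sided exact permutation test, the smallest p that 3 against 3 libraries allow.

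**Figure D3:**
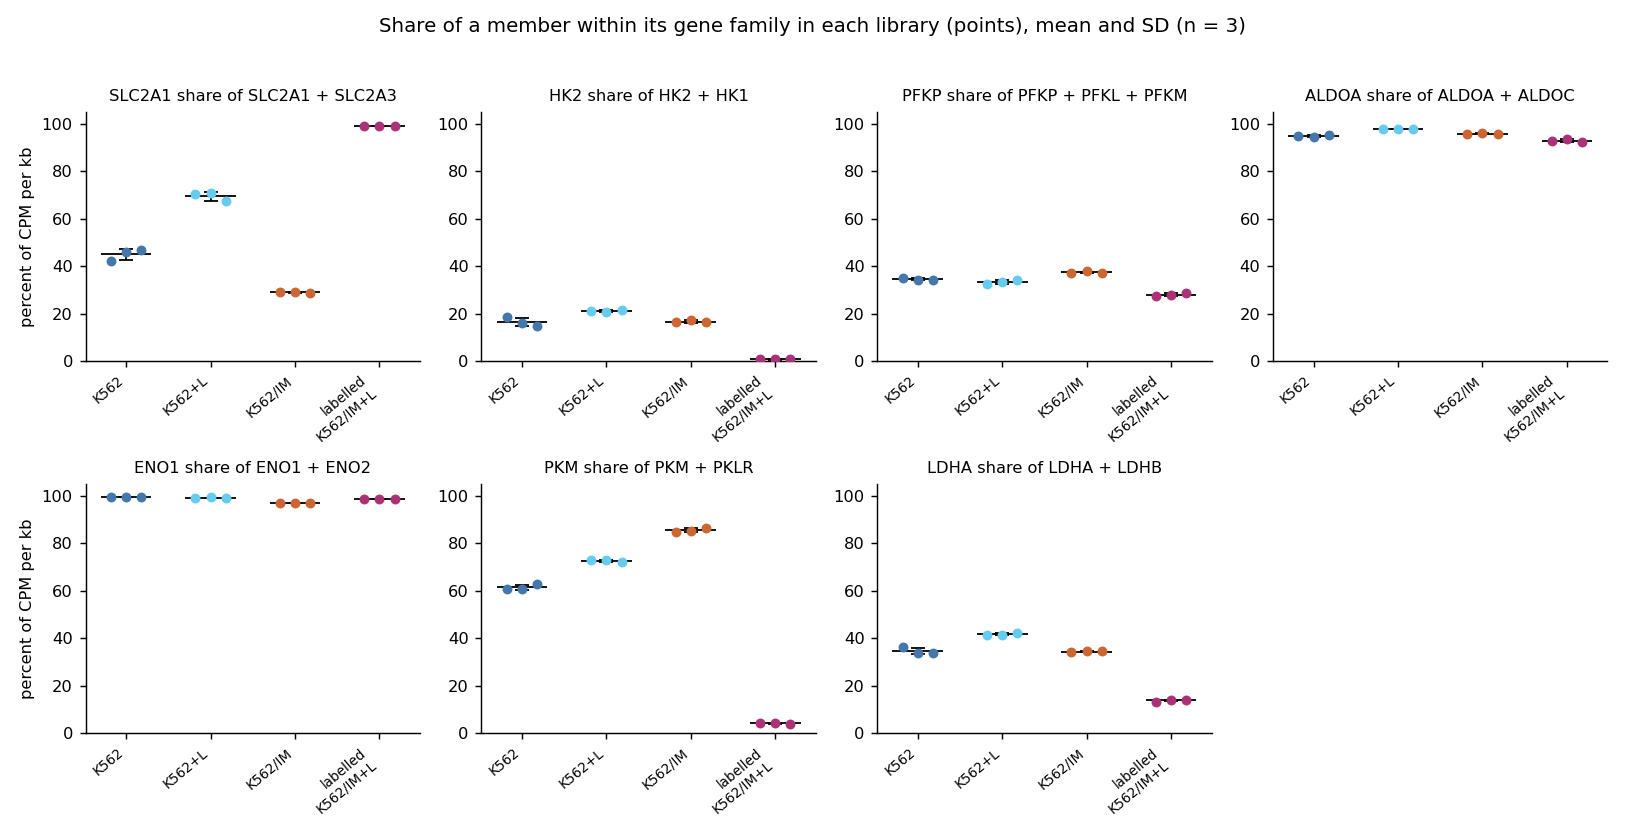
Share of a member in the summed CPM per kilobase of its gene family, in percent, in each library (points) with the mean and SD of a group. The mean share of SLC2A1 is 99.0% and those of HK2 and PKM are 0.718% and 4.04% in the K562/IM+L-labelled libraries, whereas ALDOA and ENO1 hold over 90% of their families in all groups.

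The other genes of the glycolytic steps were read from a list of 22, of which 15 to 17 were tested in a comparison. In the K562/IM+L-labelled libraries against K562/IM, 6 were higher, 6 lower and 5 not past the threshold (median log2 fold change -0.13). Of all genes, 33.2% were higher and 33.6% lower there. In K562+L 1 was higher and 5 lower of 16 tested (18.2% and 19.0% of all genes). In K562/IM against K562 4 were higher and 9 lower of 15 (30.1% and 27.1% of all genes). PKLR, the pyruvate kinase of liver and red cells, held 69.8, 78.3 and 82.7 CPM in K562, 45.3, 41.8 and 41.8 in K562+L, 31.0, 29.04 and 28.4 in K562/IM, and 461, 451 and 428 in the labelled libraries. Its 4 groups did not overlap. PKLR rose 15.4-fold over K562/IM there, with a log2 fold change of 3.95 (SE 0.08, adjusted p = 1.05e-07 by edgeR), where PKM fell 9.09-fold. In K562+L and in K562/IM it was lower than in K562, by 0.84 and 1.38 on the log2 scale, with adjusted p = 0.000815 and 1.32e-05 by edgeR. BPGM, the red cell enzyme that makes 2,3-bisphosphoglycerate, held 26.2, 26.4 and 25.1 CPM in K562/IM and 152, 164 and 144 in the labelled libraries, a 6.03-fold rise (adjusted p = 3.45e-07). PKLR and BPGM are expressed chiefly in red cells among blood cells, and the erythroid markers given above were higher in the same libraries; the part of one in the other was not tested.

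Among the genes of the steps between the members, GPI and TPI1 were not past the threshold in the K562/IM+L-labelled libraries against K562/IM (log2 fold changes -0.13 and -0.12). GAPDH rose there by 0.54 (SE 0.10, adjusted p = 0.00238 by edgeR), from 1726 ± 111 CPM (SD, n = 3) to 2462 ± 304, and PGAM1 fell by 0.92 (SE 0.07, adjusted p = 2.44e-05). GAPDH, often taken as a reference gene, therefore moved opposite to its neighbor PGK1 in these libraries. Between K562/IM and K562, GPI, TPI1, GAPDH and PGAM1 all fell, their log2 fold changes being -0.68, -0.63, -0.79 and -0.45, as did PGK1, ENO1 and LDHA. Of GPI, TPI1, GAPDH and PGAM1, only PGAM1 passed the threshold in K562+L, with -0.39 (adjusted p = 0.0132 by edgeR, but 0.0649 without K562 replicate 2 and 0.0568 without K562+L replicate 3), and GAPDH stood at -0.35 (adjusted p = 0.0559).

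Among the family partners, ENO2, the neuronal enolase, rose 4.40-fold in K562/IM over K562 and fell 4.93-fold in the K562/IM+L-labelled libraries, from 47.6 ± 3.21 CPM (SD, n = 3) to 9.48 ± 0.845. ALDOC fell 3.0-fold in K562+L and rose 1.79-fold in the K562/IM+L-labelled libraries against K562/IM. PFKM, the muscle phosphofructokinase, rose 1.54-fold in K562/IM and fell 2.27-fold in the labelled libraries, as PFKP also rose and fell, whereas PFKL stood at a log2 fold change of 0.20 (adjusted p = 0.0547 by edgeR) in the latter. LDHB fell 1.44-fold in K562+L and 1.48-fold in K562/IM, and stood at -0.19 (adjusted p = 0.0685) in the labelled libraries, where LDHA fell 3.75-fold.

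**Figure D4:**
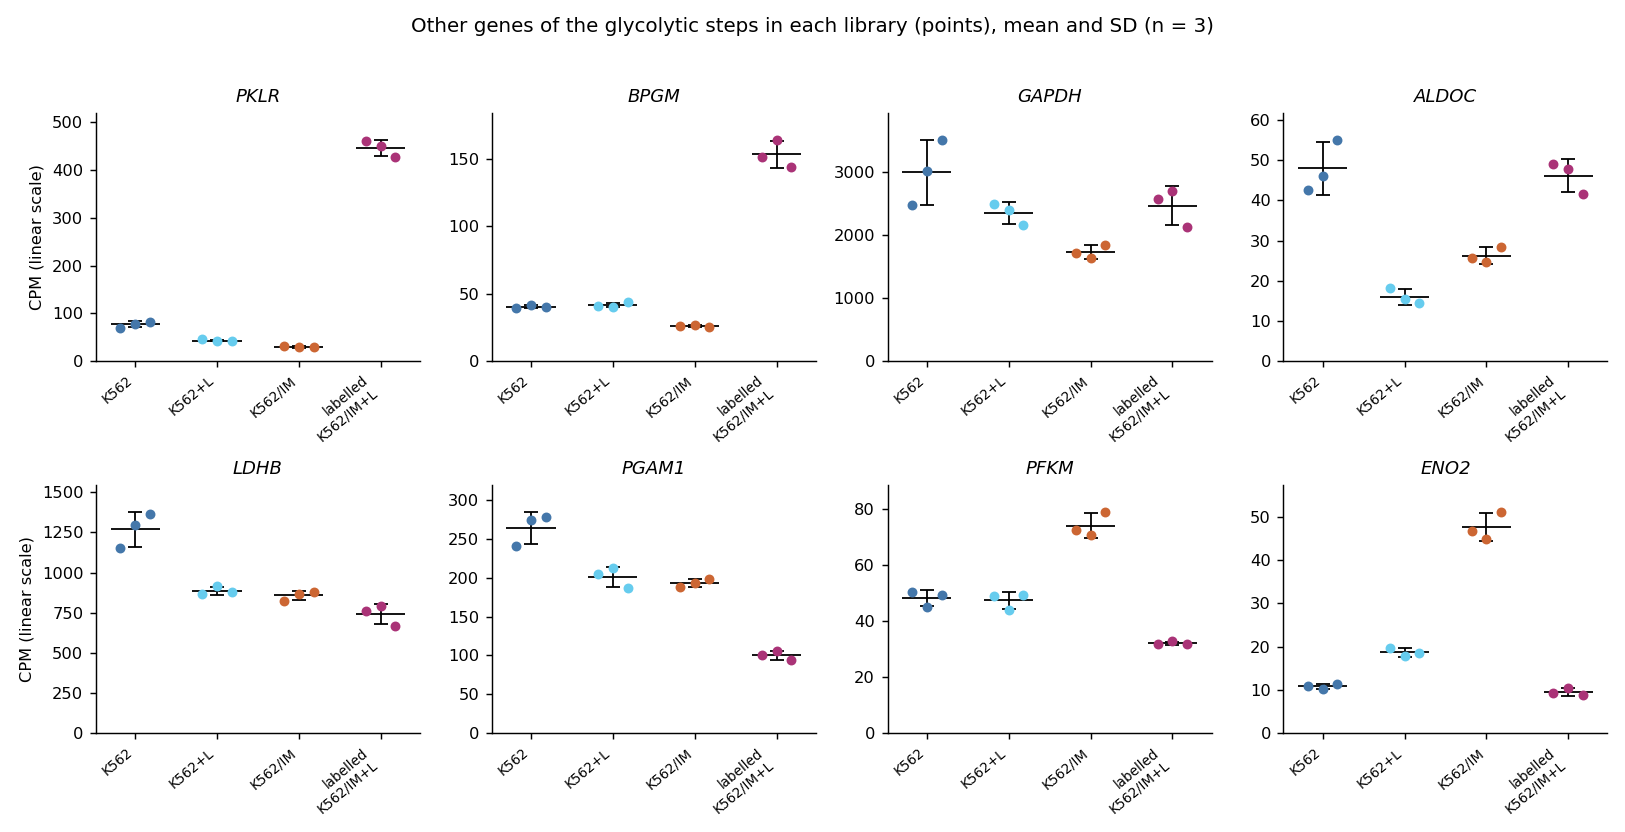
CPM on a linear scale of 8 other genes of the glycolytic steps in each library (points) with the mean and SD of a group. PKLR and BPGM are highest in the K562/IM+L-labelled libraries, PGAM1 and PFKM are lowest there, and ENO2 is highest in K562/IM.

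Genes that surround the pathway were counted in the same way. Of all genes tested, 33.2% were higher and 33.6% lower in the K562/IM+L-labelled libraries against K562/IM. These shares were 18.2% and 19.0% in K562+L, and 30.1% and 27.1% in K562/IM against K562. Of 14 other glucose transporters 9 were tested in the K562/IM+L-labelled libraries against K562/IM, 3 higher and 4 lower, and they summed to only 37.9 to 42.1 CPM there, against 589 to 644 CPM of SLC2A1. SLC2A11 rose by 1.07 and SLC2A4 by 1.06, while SLC2A14 fell by 3.05 and SLC2A13 by 0.70 on the log2 scale. SLC2A4 was low, with a mean of 5.22 CPM in the labelled libraries, and its log2 fold change in K562+L was -2.07. Of 10 genes that control uptake and flux, 6 were higher and 1 lower in the labelled libraries against K562/IM. TIGAR, whose product lowers fructose 2,6-bisphosphate, held 0.108, 0 and 0 CPM in K562/IM and 1.67, 1.21 and 1.37 in the labelled libraries (adjusted p = 0.00181 by edgeR), and stood at 1.76 to 2.94 CPM in K562 and 2.41 to 2.77 in K562+L. TIGAR thus set K562/IM apart from the other 9 libraries, as CD3D and COL1A2 did, and its fold change is not given because 2 of the K562/IM libraries were at 0. MLXIPL, which encodes the glucose-sensing factor ChREBP, rose by 3.23 on the log2 scale to 83.7 ± 8.94 CPM (SD, n = 3), and ARRDC4, a known target of the MondoA and ChREBP factors, by 1.48 to 128 ± 9.96. TXNIP, which restrains glucose uptake, fell in K562+L by 1.20 on the log2 scale, but not past the threshold without K562+L replicate 1 (adjusted p = 0.06 by edgeR). ARRDC4 rose in K562+L by 0.75 (adjusted p = 0.0011 by edgeR). TXNIP stood at 240 ± 109 CPM (SD, n = 3) in the labelled libraries and 148 ± 14.7 in K562/IM, and these groups overlapped. In K562+L 2 of the 9 control genes tested were higher and 4 lower, and in K562/IM 4 were higher and 3 lower.

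Lactate leaves the cell through the transporters SLC16A1 (MCT1) and SLC16A3 (MCT4) with the chaperone BSG. SLC16A1 fell by 1.22 on the log2 scale in the K562/IM+L-labelled libraries, from 243 ± 9.03 CPM (SD, n = 3) to 103 ± 5.98, while BSG rose by 1.56 to 1189 ± 153. SLC16A3 was low throughout, at most 3.10 CPM. Of 14 genes of pyruvate entry to mitochondria 13 were tested, with 1 higher and 5 lower there, PDP2, PDK3 and DLAT falling most. Of the 10 genes of the pentose phosphate pathway 5 were higher and 4 lower. TKTL1 and PGLS rose most (log2 fold changes 1.37 and 1.30), and RPE and PRPS2 fell most (-1.45 and -1.08). Of 20 genes of glycogen and gluconeogenesis 15 were tested, and 5 were higher and 5 lower. Beside these counts, 33.2% of all genes tested in this comparison were higher and 33.6% lower.

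HIF targets outside glycolysis moved in both directions in the K562/IM+L-labelled libraries against K562/IM, 9 higher and 4 lower of 19 tested (33.2% and 33.6% of all genes), with a median log2 fold change of 0.13 beside -0.01. ADM rose by 2.18 to 5.27 ± 1.16 CPM (SD, n = 3), NDRG1 by 1.78 and DDIT4 by 1.21 on the log2 scale, whereas BHLHE40 fell by 1.93 and ERO1A by 1.32. In K562+L 2 rose and 6 fell of 18 tested (18.2% and 19.0% of all genes), and in K562/IM 8 rose and 5 fell of 19 (30.1% and 27.1% of all genes).

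The 10 members together took 0.654%, 0.670% and 0.750% of all counts in the K562 libraries and 0.692%, 0.679% and 0.640% in K562+L, which overlapped (two-sided exact permutation p = 0.7). They took 0.583%, 0.581% and 0.608% in K562/IM, and 0.328%, 0.334% and 0.310% in the K562/IM+L-labelled libraries. The last share was 0.549 of that in K562/IM, without overlap (exact permutation p = 0.1, the smallest possible). The summed CPM of the 22 other genes of the steps was 4051 ± 182 (SD, n = 3) in K562/IM and 5000 ± 511 in the labelled libraries, of which GAPDH held 1726 and 2462 CPM on average.

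The genes outside these lists whose pattern was most like the mean of the members over the 12 libraries, by Pearson's r of log2 CPM among 9233 candidates, were TCOF1 (r = 0.995), USP39, FKBP4, SLC35F6 and APOL4 (r = 0.993 for the last). FKBP4 stood at 315 ± 24.6 CPM (SD, n = 3) in K562, 280 ± 2.66 in K562+L, 212 ± 5.25 in K562/IM and 62.1 ± 4.26 in the K562/IM+L-labelled libraries. PPP2R5B was most like SLC2A1 (r = 0.995) and RCC2 most like SLC2A3 (r = 0.999). Among the members themselves, SLC2A3 and PKM (r = 0.990) and ENO1 and LDHA (r = 0.988) were most alike, and SLC2A1 and PFKP (r = -0.91) most opposed. These libraries fall in 4 groups, so that the coefficients mainly describe the order of 4 group means.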

How the data were processed

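The authors deposited whole-number counts per gene symbol, without normalization. The submitters' processing notes name FastQC, STAR, StringTie, DESeq2 and hg38, without roles or versions, and the annotation and strand setting are not given in the sources used here. Of 23289 values from 1 to 25, 67.9% were a multiple of 4 or 1 above it, against 52% of whole numbers in that range, so 1 fragment may be worth several counts and no counting interval is given. Groups were taken from the sample labels.

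Tools were edgeR 4.0.16, DESeq2 1.42.0 and limma 3.58.1 in R 4.3.3, with Python 3.11.15 and scipy 1.17.1. In each comparison 6 libraries were filtered with filterByExpr (minimum count 10), scaled by TMM and tested across all genes by edgeR's quasi-likelihood method, with Benjamini-Hochberg adjustment over all genes tested. A gene was called at an adjusted p under 0.05, and standard errors are the log2 fold change over the root of the test's F. The interaction used all 12 libraries, and CPM used TMM over all 12. Positions, exon lengths and shared 75-base stretches came from GENCODE release 29 (GRCh38), matched by symbol for 19029 of 19447 symbols, and promoters from RefSeq (GRCh38.p14) for 9 of 10 members. The members and gene lists were chosen with earlier results of these data known. Named besides the members were GPI, TPI1, GAPDH and PGAM1 of the steps between them, family partners, and in each list up to 3 called genes per direction with the largest change, a mean of at least 1 CPM and no overlap between groups; CD3D, COL1A2 and the other cell type markers named, and the pairs of members most alike, were singled out after their values were seen. The scripts were tested on simulated data. No set test was made. Alternatives were DESeq2, other scalings and filters, a fold threshold of 1 on the log2 scale, counts divided by 4, the replicate number as a block, all 12 libraries in 1 fit, and each library left out. Within these rules 1 gene is not reported here, and the counts over lists include it.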

Additional observations from a re-analysis of the deposited data

Results flagged for a closer look

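Lycorine's effect was not the same in K562/IM as in K562 (values are K562/IM minus K562) for 8 members by the interaction term over the 12 libraries (edgeR's quasi-likelihood test). Of the 17 other genes of the steps tested, 7 were more positive and 4 more negative in K562/IM, where 29.9% and 31.7% of all genes were. Each value here is the difference of the log2 fold changes, and each rests on the label of the libraries labelled K562/IM+L.

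Among the members, SLC2A1 differed by 1.88 (adjusted p = 2.29e-08), SLC2A3 by -4.58 (adjusted p = 1.3e-10) and HK2 by -5.11 (adjusted p = 8.71e-10). PFKP differed by -0.40 (adjusted p = 0.00583) and PGK1 by -0.21 (adjusted p = 0.0351), with the limits given for PGK1 above. ENO1 differed by -1.30 (adjusted p = 1.18e-05), PKM by -3.10 (adjusted p = 8.33e-09) and LDHA by -1.84 (adjusted p = 2.84e-08). HK2 was the member whose effects past the threshold had opposite signs, 0.59 in K562 and -4.50 in K562/IM.

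Among the genes of the steps between the members, GAPDH differed by 0.87 (adjusted p = 0.00108) and PGAM1 by -0.55 (adjusted p = 0.00107), and BPGM differed by 2.53 (adjusted p = 3.10e-09). Among the family partners, PFKL differed by 0.45 (adjusted p = 0.0258, but 0.13 with library totals alone and up to 0.0754 in the fits without 1 library that ended the call), PFKM by -1.18 (adjusted p = 2.22e-06), LDHB by 0.31 (adjusted p = 0.0287, but 0.241 with library totals alone and up to 0.108 in the fits without 1 library that ended the call), ENO2 by -3.11 (adjusted p = 5.52e-09), ALDOC by 2.40 (adjusted p = 3.86e-07), PKLR by 4.77 (adjusted p = 8.46e-11) and the transporter SLC2A14 by -2.43 (adjusted p = 0.000518). ENO2, ALDOC and PKLR had effects of opposite sign past the threshold in the 2 lines, with 0.78, -1.58 and -0.84 in K562 and -2.30, 0.84 and 3.95 in K562/IM. The erythroid markers differed in the same way, 15 of 15 more positive in K562/IM with a median difference of 4.83, and their part in these values was not tested.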

How the results depend on the processing

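The counts of members called were recomputed under the alternatives, and 107 values without 1 library and 135 others stayed within 1.5 times the value reported, while 3 were larger and 10 smaller. With a fold threshold, 1 member was called in K562+L (1 higher, 0 lower, from 5 called), 0 in K562/IM against K562 (0 higher, 0 lower, from 8), and 1 was higher in the K562/IM+L-labelled libraries against K562/IM (from 2). With library totals alone 1 was higher in that comparison. With upper-quartile scaling 2 were higher in the labelled libraries against K562 (from 1), and 3 were more positive in the interaction (from 1, and 1 to 2 without 1 library, with 2 without the third library labelled K562/IM+L). Library totals alone moved the median of all genes to 0.23 in K562/IM against K562, -0.19 in the labelled libraries against K562/IM and -0.21 in the interaction, and upper-quartile scaling moved it to 0.17 in the labelled libraries against K562 and 0.11 in the interaction. The deviations of same-numbered libraries from their group means had correlations of -0.14, 0.04 and -0.39 for K562+L and K562. K562+L replicate 3 and K562 replicate 1 had 0.449. With 3 libraries in a group, such deviations are tied to each other and cannot decide whether the numbers pair the libraries. With the replicate number as a block 3 members were called in K562+L, 1 of them lower, where SLC2A3 had an adjusted p of 0.0533 and PFKP of 0.135. The block also ended the calls of PFKP (0.0605) and ALDOA (0.0788) in the labelled libraries against K562 and of PGK1 in the interaction (0.0599), and no other call of a member. The PGK1 interaction was also not past the threshold with upper-quartile scaling (-0.078, adjusted p = 0.426), RLE scaling (0.0573) or no low-count filter (0.0614).

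Log2 fold changes that were not past the threshold changed sign as follows. ENO1 in K562+L was -0.026 with upper-quartile scaling and -0.0833 to 0.13 without 1 library. ALDOA in the K562/IM+L-labelled libraries against K562/IM was -0.15 with library totals alone and -0.070 to 0.16 without 1 library. With library totals alone HK1 and HK2 in K562/IM against K562 were 0.071 and 0.089, and HK1 in the interaction was -0.081. The share of counts taken by the members became 0.79%, 0.745%, 0.650% and 0.393% in K562, K562+L, K562/IM and the labelled libraries without the 50 highest other genes, and 0.54% in K562/IM with the TMM-scaled library size. The causes were not tested. The lowest count of a member was 234, for HK2, and since 1 fragment may be worth several counts, the counting error behind it is unknown.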
